A study of Mus musculus with 7 samples.

Results

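The 8 genes described here, Afp, Alb, Ahsg, Apoa1, Apoa2, Ttr, Fgb and Ambp, encode proteins that the liver secretes into plasma. They are 8 of the 35976 gene symbols measured in mouse adrenal glands, were chosen by symbol for their decline with age in these same libraries, and all 8 were above the filter on low values (a mean of at least 10 normalized counts, 16720 genes). Total RNA from pooled glands of the inbred strain C57BL/6J was sequenced, and the labels name no treatment. The 7 pools were E18.5 (late embryos, 40 glands, sex not determined), P1 male (postnatal day 1, 16 glands), P1 female (22 glands), 2-week male and 2-week female (6 glands each), and 12-week male and 12-week female (4 glands each). Each group had 1 library made from 1 pool, so no group had a replicate, and the spread between animals is not seen in any value below. The decline with age chose the genes, so it is described without a test.

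Total reads in genes ranged from 15184210 to 23551289 per library. In the value sentences the male pool comes first unless stated. Values are normalized counts, which are whole reads divided by 1 size factor per library. Intervals in brackets are exact 95% binomial (Clopper-Pearson) intervals and cover only the error of counting, as these reads carry no molecular identifiers and so are not independent molecules. In each library 7 of 7 cortical markers, among them Star and Cyp11a1, were above 3 reads. This low cut does not measure purity, since 8 of 8 kidney marker genes also passed it in both P1 pools. In the library labelled P1 female, 4 Y-linked genes had a median of 21.0% of their P1 male level (range 15.6 to 28.1%), so each sex difference at P1 and each female change from or to P1 uses a library with Y-linked transcripts.

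Plasma proteins are made mainly by hepatocytes, and before birth by the yolk sac as well. Alpha-fetoprotein (Afp) and albumin (Alb) are related carrier proteins that arose by gene duplication. Afp dominates in the fetus and is shut off in liver after birth, while albumin continues for life. Ahsg encodes fetuin-A, an inhibitor of calcification. Apoa1 and Apoa2 encode the main apolipoproteins of high-density lipoprotein, Ttr encodes transthyretin, a carrier of thyroid hormone and retinol-binding protein, Fgb encodes the beta chain of fibrinogen, and Ambp encodes a precursor that is cut into alpha-1-microglobulin and the protease inhibitor bikunin.

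In the GRCm38 annotation Alb (chr5:90460897-90476602, plus strand) lies next to Afp (chr5:90490737-90508907, plus strand). The stretches that end just before the RefSeq transcription start are shown for these 2 members, since they share a gene cluster but not a time course. Capitals mark a TATA box, TATAAA on the forward strand, and a CCAAT box, CCAAT on either strand. The sequences are from RefSeq, build GRCm38.p6, 5′ to 3′ on the gene's strand: Afp at chr5:90490564-90490713 (plus) and Alb at chr5:90460720-90460869 (plus).
Afp: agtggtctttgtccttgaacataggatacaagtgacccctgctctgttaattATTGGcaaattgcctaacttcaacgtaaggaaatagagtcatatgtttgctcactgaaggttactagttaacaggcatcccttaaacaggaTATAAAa
Alb: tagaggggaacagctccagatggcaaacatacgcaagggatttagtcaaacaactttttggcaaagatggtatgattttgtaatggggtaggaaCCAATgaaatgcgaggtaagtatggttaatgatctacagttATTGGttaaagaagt

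Of the 7 members with an entry in the promoter table, 2 (Afp and Apoa2) held TATAAA within 250 bases before the start, against 7.59% of 32851 promoters. CCAAT was in 4 of the 7 (Afp, Alb, Ambp and Apoa2), against 33.8% of promoters. In Afp the TATA box began 7 bases and the CCAAT box 98 bases before the start, and in Alb the CCAAT boxes began 56 and 15 bases before it. The RefSeq start lay 23 bases from the GENCODE start in Afp and 27 in Alb, so these distances depend on the start chosen. The RefSeq start of Ahsg was 738 bases and that of Ambp 627 bases from the GENCODE start. A match is a description of letters and no evidence of binding.

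Before and just after birth these transcripts were abundant in the adrenal libraries, and by 12 weeks little of them was left. Summed over the 8 genes, the level was 300608 normalized counts before birth, 380937 (male) and 263656 (female) at P1, 13134 and 34363 at 2 weeks, and 450.2 and 428.8 at 12 weeks. Every one of the 8 was at least 2-fold lower at 2 weeks than at P1 in both sexes, and again at 12 weeks than at 2 weeks. Of all genes tested, 9.87% were so lower in the first step and 8.18% in the second. In pooled glands, fewer cells of a type and less RNA per cell cannot be told apart.

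Afp had 48990 normalized counts before birth, 50108 (male) and 27238 (female) at P1, 25.8 and 81.2 at 2 weeks, and 2.80 and 29.4 at 12 weeks. The 3 perinatal pools were high, and the last 4 pools were all low, with the 12-week female pool above the 2-week male pool. These low values rest on 29, 92, 2 and 26 reads. Each of the other 7 genes had 137.0 normalized counts or more in both 2-week pools.

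Albumin had 165072 normalized counts before birth, 207903 (male) and 119886 (female) at P1, 8297 and 21233 at 2 weeks, and 247.5 and 157.3 at 12 weeks. The 3 postnatal ages did not overlap: every 2-week value lay between those of P1 and those of 12 weeks. Fetuin-A (Ahsg) went through the same stages, with 49148 before birth, 74700 (male) and 69837 (female) at P1, 3257 and 8811 at 2 weeks, and 103.5 and 196.9 at 12 weeks. Ahsg was above Alb in the 12-week female pool and below it in the other 6.

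The HDL apolipoproteins differed from the rest at P1, where the female pool was the highest. Apoa1 had 8922 normalized counts before birth, 12957 (male) and 20508 (female) at P1, 641.4 and 1484 at 2 weeks, and 39.1 and 13.6 at 12 weeks. Apoa2 had 2497 before birth, 3026 (male) and 4299 (female) at P1, 197.5 and 635.2 at 2 weeks, and 21.0 and 14.7 at 12 weeks. For neither gene did any 2 ages overlap.

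Transthyretin (Ttr) was highest in the embryonic pool, with 4959 normalized counts before birth, 4203 (male) and 2240 (female) at P1, 267.8 and 955.5 at 2 weeks, and 12.6 and 5.66 at 12 weeks. Its P1 female and 2-week female values were the closest pair of P1 and 2-week values of any of the 8 genes within a sex. Fgb had 18708 before birth, 25024 (male) and 16882 (female) at P1, 311.3 and 761.4 at 2 weeks, and 21.0 and 11.3 at 12 weeks. Ambp had 2312 before birth, 3015 (male) and 2767 (female) at P1, 137.0 and 401.4 at 2 weeks, and 2.80 (2 reads) and no read at 12 weeks. Afp in 12-week male and Ambp in both 12-week pools were under the floor of 3 reads.

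**Figure D1:**
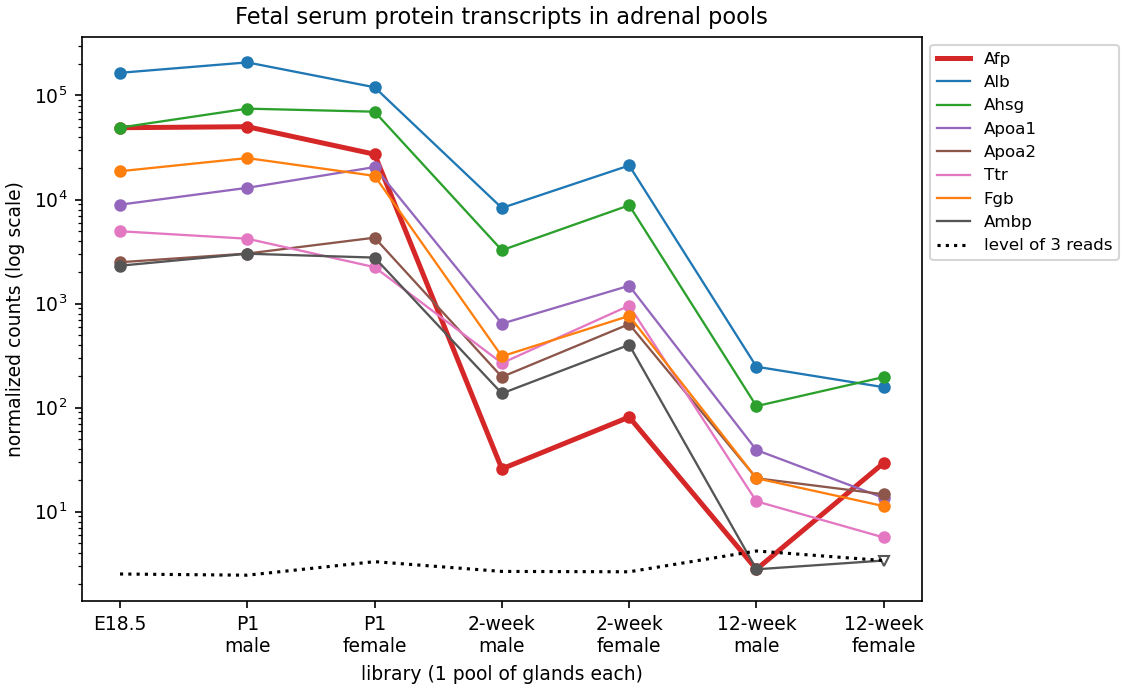
Normalized counts (log axis) of the 8 genes in the 7 libraries, 1 point per library, with the level of 3 reads as a dotted line and an open triangle where no read was found. Afp (thick line) drops from 50108 in P1 male to 25.8 in 2-week male, below the other 7 genes, and ends in 12-week female at 29.4, above Apoa1, Apoa2, Ttr, Fgb and Ambp. These counts are not corrected for gene length. Per kilobase, Afp (8.73) was below Apoa2 (27.4) and Apoa1 (11.0) in 12-week female.

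Levels of different genes are compared per kilobase of exon, from the GENCODE M21 annotation of the same build. At E18.5 the order was Alb (70483 normalized counts per kilobase), Ahsg (22370), Afp (14546), Apoa1 (7219), Fgb (4910), Apoa2 (4650), Ttr (4181) and Ambp (1641). In 2-week male Afp was last, with 7.66 per kilobase against 81.7 for the next, Fgb. In 12-week female the order was Ahsg (89.6), Alb (67.1), Apoa2 (27.4), Apoa1 (11.0), Afp (8.73), Ttr (4.77) and Fgb (2.97). With 5 to 26 reads for the genes from Apoa2 downward, most neighbours in that last order are not separated at this depth.

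Around birth the genes did not move as a group. From the unsexed E18.5 pool to P1 male, Afp was nearly level, with a P1 to E18.5 ratio of 1.02 (1.01 to 1.03). Ahsg was at 1.52 (1.50 to 1.54) and Ttr at 0.847 (0.816 to 0.880). To P1 female, Afp was at 0.556 (0.548 to 0.564), Ttr at 0.452 (0.429 to 0.475) and Alb at 0.726 (0.721 to 0.732), against 2.30 (2.24 to 2.35) for Apoa1. Both ratios share the E18.5 library. Ttr was thus the one member below its E18.5 level in both P1 pools at this counting precision.

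From P1 to 2 weeks Afp fell 1942-fold in males (1352 to 2901) and 336-fold in females (274 to 416). Albumin fell 25.1-fold in males (24.5 to 25.6) and 5.65-fold in females (5.57 to 5.73). Spread evenly over the 13 days, this is a halving of Afp every 1.19 days in males and 1.55 days in females, against every 2.80 and 5.21 days for albumin. Afp was the lowest of the 8 log2 changes in both sexes. Fgb came next, with falls of 80.4-fold (72.3 to 89.6) and 22.2-fold (20.7 to 23.8). The other 6, Alb included, fell 15.3-fold to 25.1-fold in males and 2.34-fold (Ttr) to 13.8-fold (Apoa1) in females. Of the 16720 genes tested, 1 in each sex had a lower log2 change than Afp: the pancreatic enzyme gene Ctrb1 in males and the perinatal muscle myosin gene Myh8 in females, both named after their values were seen.

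From 2 weeks to 12 weeks the order turned in females, where Afp had the smallest log2 fall of the 8. The Afp value was also the smallest in males, but there its counting interval covered the falls of the other 7 genes. Afp began this step at only 81.2 normalized counts in females and 25.8 in males, against 12-week floors of 3.39 and 4.19. That low start limited the fall that could be seen, so the rank of Afp in this step was largely set in advance. In females Afp fell 2.76-fold (1.77 to 4.44), while Alb fell 135.0-fold (114 to 161), Ttr 169-fold (72.2 to 521) and Ahsg 44.8-fold (38.5 to 52.3). In males Afp went from 29 reads to 2, a ratio of 9.23 (2.33 to 79.8), and Alb fell 33.5-fold (28.9 to 39.1). Apoa2 in males, at 9.42-fold (5.59 to 17.1), was the closest to Afp, and no other member was separated from Afp in males at this depth. Ambp went from 154 reads to 2 in males, a ratio of 49.0 (13.3 to 408), and from 455 reads to 0 in females. With the 0 set to the floor of 3 reads the female fall was 118-fold, and the exact interval put its lower limit at 95.8-fold. Over these 70 days albumin halved every 13.8 days in males and 9.89 days in females, so its fall per day was slower than in the first step in both sexes.

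**Figure D2:**
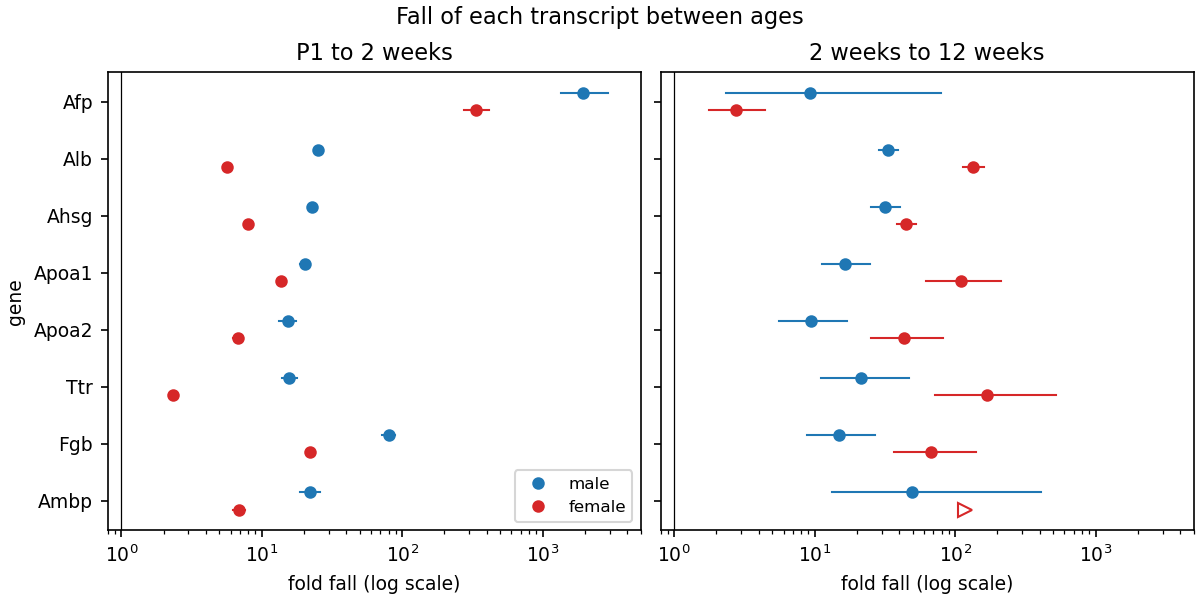
Fold fall (log axis) of each gene from P1 to 2 weeks (left) and from 2 weeks to 12 weeks (right). Males are in blue and females in red, with exact 95% counting intervals. The open arrow is the Ambp fall in females with 0 reads set to the floor of 3 reads. Afp is farthest right in the first step (1942 and 336) and, among females, farthest left in the second (2.76). It began the second step at 92 reads in females, which limited the fall that could be seen.

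A ratio between genes inside a library does not depend on how libraries are scaled. Per 1000 Alb reads there were 297 Afp reads at E18.5 (294 to 300), 241 in P1 male (239 to 243) and 227 in P1 female (224 to 230). There were 3.11 in 2-week male (2.08 to 4.47), 3.82 in 2-week female (3.08 to 4.69), 11.3 in 12-week male (1.36 to 41.4) and 187 in 12-week female (118 to 286). The sexes overlapped at 2 weeks, and the 12-week female interval lay above both 2-week intervals and above the 12-week male interval. On the log2 scale the change of Afp minus that of Alb from P1 to 2 weeks was -6.22 in males and -5.88 in females. From 2 weeks to 12 weeks it was 2.24 in males, where it rests on 2 Afp reads, and 5.63 in females. From the unsexed E18.5 pool it was -0.30 to P1 male and -0.39 to P1 female.

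**Figure D3:**
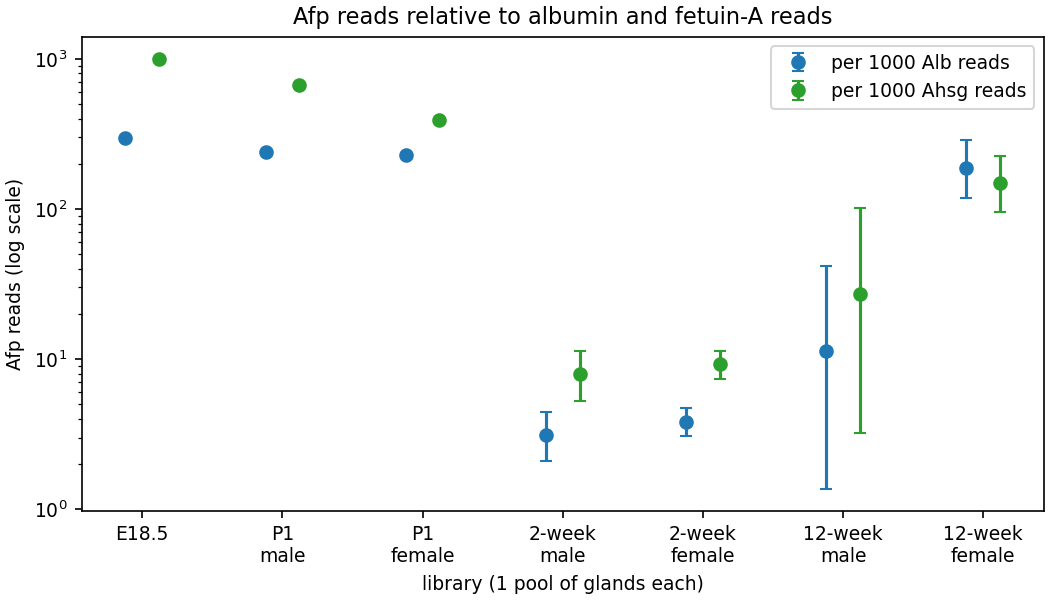
Afp reads per 1000 Alb reads (blue) and per 1000 Ahsg reads (green) in each library, on a log axis with exact 95% counting intervals. The 2-week pools are lowest (3.11 and 3.82 per 1000 Alb reads), and the 12-week female pool is at 187.

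The make-up of the 8 genes' reads shows the same shift. Afp made up 16.3% of them at E18.5, 13.2% in P1 male and 10.3% in P1 female, and 0.196% (0.132 to 0.282) and 0.236% (0.190 to 0.290) in the male and female pools at 2 weeks. In 12-week male it was 0.621% (0.0753 to 2.23) and in 12-week female 6.86% (4.53 to 9.89). Fgb made up 6.22 to 6.57% in the 3 perinatal pools and 2.37% and 2.22% at 2 weeks. Albumin made up 45.5 to 63.2% in 6 libraries and 36.7% (31.8 to 41.7) in 12-week female, where Ahsg took 45.9% (40.8 to 51.1).

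**Figure D4:**
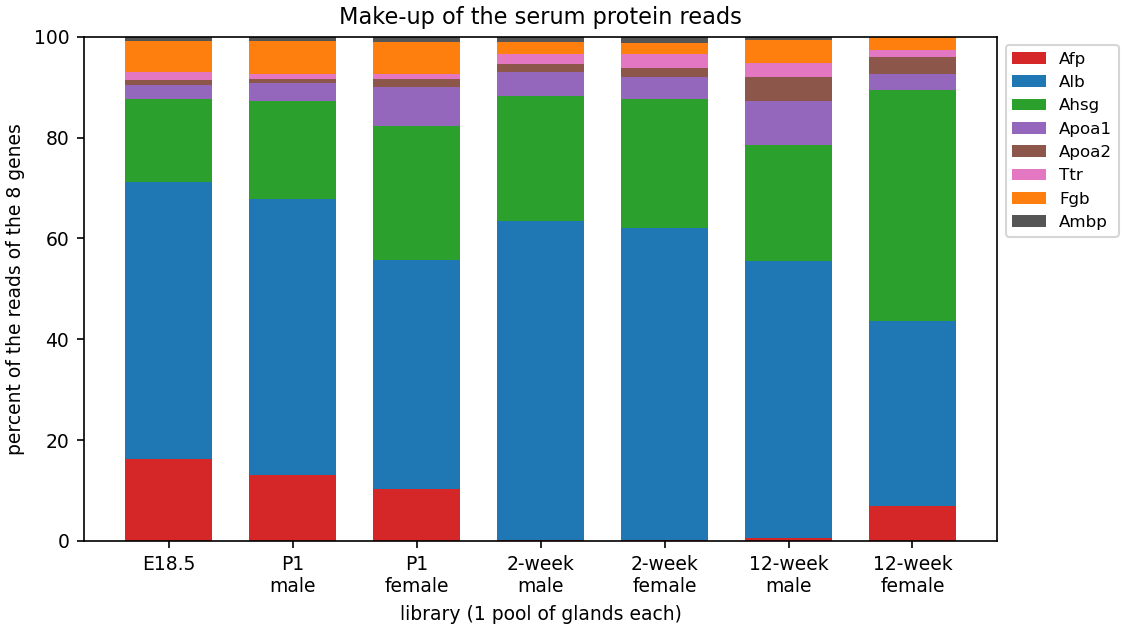
Percent of the reads of the 8 genes taken by each gene, 1 stacked bar per library. The Afp segment (red, bottom) is 16.3% at E18.5, under 0.3% at 2 weeks and 6.86% in 12-week female, where Ahsg (green) reaches 45.9%.

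The rule did not use sex, so the genes were tested for a difference between the sexes over P1, 2 weeks and 12 weeks, with age as a block. None of the 8 passed an adjusted p of 0.05 in limma, edgeR or DESeq2, and 1 (Ahsg), 1 (Apoa2) and 2 (Ahsg and Apoa2) had an unadjusted p under 0.05. Over all genes tested, 0.00598% passed in limma. The male minus female log2 difference was -0.75 ± 0.273 for Ahsg (SE; lower at 2 of 3 ages; limma adjusted p 0.999), and -1.25 ± 0.646 for Afp (lower at 2 of 3 ages; limma adjusted p 0.999). Leaving out 1 library moved the first to between -1.18 (without either P1 library) and -0.41 (without either 2-week library). The second moved to between -2.31 (without either P1 library) and -0.37 (without either 12-week library). Without either 12-week library the log2 difference of Apoa1 was -0.94, against -0.14 in the main fit. Such a fit leaves 1 residual degree of freedom and still uses the P1 female library with its Y-linked transcripts.

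Within an age each sex had 1 pool, so those differences have no replicate check. At 2 weeks all 8 genes were at least 2-fold lower in the male pool, against 3.67% of all genes tested, with log2 differences from -1.83 (Ttr) to -1.21 (Apoa1). None was at least 2-fold higher there (0.568% of all genes). At P1 6 of the 8 were higher in the male pool and Apoa1 (-0.66) and Apoa2 (-0.51) lower, none of them by 2-fold (3.03% of all genes were 2-fold lower and 3.75% higher). At 12 weeks 6 were higher in the male pool, 3 of them by at least 2-fold (Apoa1, Ttr and Ambp; 4.84% of all genes). Of these 6 only Alb and Apoa1 differed beyond counting error. Ttr rested on 9 reads against 5 and Ambp on 2 against 0, and Apoa2 and Fgb were not separated at this depth either. Afp (-3.00, at least 2-fold lower, as were 3.98% of all genes) and Ahsg (-0.92) were lower. Intracellular hepatocyte enzymes and transporters, which are not secreted, had a median log2 male minus female difference of -0.24 at P1 (12 of 20 lower), -1.20 at 2 weeks (20 of 20 lower) and 1.26 at 12 weeks (13 higher, 5 lower). For the 8 genes the medians at the same ages were 0.35, -1.49 and 0.74. For 50 other plasma protein genes they were -0.18 (33 lower, 17 higher), -1.29 (49 lower, 1 higher) and 0.89 (36 higher, 10 lower). Erythroid genes were at -0.29 (6 of 8 lower), -2.28 (8 of 8 lower) and 1.30 (7 of 8 higher) at these ages, and skeletal muscle genes at -0.89 (6 of 6 lower), -4.87 (6 of 6 lower) and 0.18 (4 of 6 higher). The part of these cell types in the differences of the 8 genes was not tested.

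**Figure D5:**
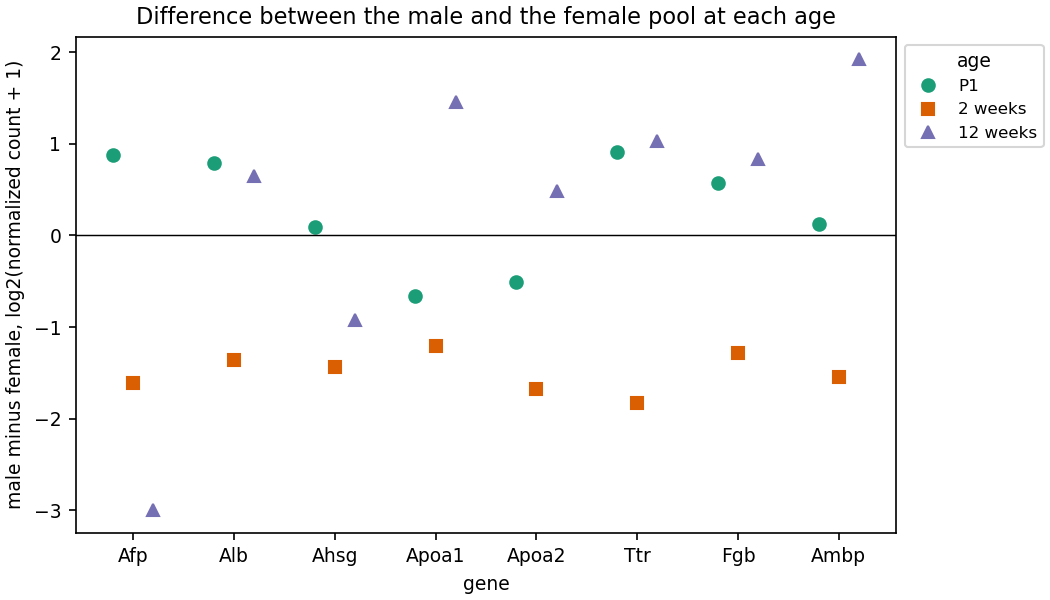
Male minus female difference in log2(normalized count + 1) for each gene at P1 (circles), 2 weeks (squares) and 12 weeks (triangles), 1 pool per sex and age. All squares lie between -1.83 and -1.21; at 12 weeks Afp (-3.00) and Ahsg (-0.92) lie below 0 and the other 6 above it.

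Most of the other listed plasma proteins made by hepatocytes fell in each of the 2 steps, but the 2 most abundant did not pass as lower in the second. Of 50 listed genes, 49 were tested with sex as a block. From P1 to 2 weeks 42 fell and 1 rose at an adjusted p of 0.05 in limma, against 10.5% and 5.89% of all genes, with a list median of -3.45 log2 (all genes 0.00). From 2 weeks to 12 weeks 37 fell and 1 rose, against 9.89% and 5.4%, with a median of -4.29 (all genes -0.03). The most abundant were Trf (transferrin, the iron carrier), C3 (complement), Apob (the protein of low-density lipoprotein) and Fga (the fibrinogen alpha chain). In the first step they changed by -3.45, -2.63, -3.56 and -5.27 log2. In the second step Apob fell by 6.20 on the log2 scale and Fga by 4.54, while the change was 0.21 for Trf (limma adjusted p 0.766) and 2.1098 for C3 (limma adjusted p 0.0707). C3 had 49200 normalized counts in the 12-week female pool, its highest value of the 7. The list sum was no lower at 12 weeks (24386 in males and 63065 in females) than at 2 weeks (21148 and 39380). The gene that rose in both steps was Orm1, an acute-phase glycoprotein, by 2.48 ± 0.448 (SE; limma adjusted p 0.0155) and 2.18 ± 0.448 (limma adjusted p 0.0237). In limma, leaving out the P1 male or the P1 female library left 0 of these genes past the threshold in the first step (40 and 41 at an unadjusted p under 0.05) and 22 in the second. Without the 2-week male library 13 passed in the first step, and without the 2-week female library 21 in the second.

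Among them, the closest relatives of the members can be set beside them. The albumin family also holds Afm (afamin, a vitamin E carrier) and Gc (the vitamin D binding protein). In the first step Afm fell 7.54-fold in males and 2.75-fold in females, and Gc 16.9-fold and 4.83-fold, both less than albumin itself and far less than Afp. In limma their changes were -2.16 ± 0.508 (SE; adjusted p 0.0347) and -3.17 ± 0.575 (adjusted p 0.0156). The 3 fibrinogen chains, which assemble into 1 protein, fell alike in this step: Fga 75.7-fold, Fgg 78.4-fold and Fgb 80.4-fold in males, and 19.7-fold, 19.7-fold and 22.2-fold in females. Fgg was chosen after its values were seen.

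None of the 50 had a larger log2 fall than Afp from P1 to 2 weeks in either sex. In females Apoa4, an apolipoprotein made by liver and intestine, was not separated from Afp at this depth: it fell 309-fold (177 to 600, from 2968 reads to 12). It was picked with its value in view. From 2 weeks to 12 weeks 27 of the 50 fell more than Afp in males and 42 in females. Of all 16720 genes tested, 392 did so in males and 1493 in females. The low Afp start of 29 and 92 reads limited the fall that Afp could show. The 8 of the 50 that did not fall more than Afp in females were Apoc4, C3, Cp, Hp, Itih2, Orm1, Rbp4 and Trf. The male count is uncertain, since the male Afp fall rests on 2 reads at 12 weeks, with an interval of 2.33-fold to 79.8-fold.

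The profiles most like that of Afp over the 7 libraries, by root-mean-square difference of centred log2 values among 12255 genes with a mean of at least 100, belonged to Myh8, Actc1 and Myh3, which encode muscle myosins and a muscle actin, and to 2 others. The values were Myh8 (1.16 log2, Pearson's r 0.978), Actc1 (1.38, r 0.973), Myh3 (1.41, r 0.967), Serpina1e (1.63, r 0.973) and Atp1b4 (1.67, r 0.958). For Alb they were Apoh (0.35, r 0.998), Pzp (0.37, r 0.996), Proc (0.46, r 0.995), Cyp2c68 (0.47, r 0.993) and Uox (0.48, r 0.995). Among the other members, the difference from Alb ran from 0.54 (Ttr) to 1.03 (Apoa2), except for Afp at 2.74. These likenesses are over 7 libraries that share their size factors and are given as a description.

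Serpina1e, which encodes a form of the elastase inhibitor alpha-1-antitrypsin, was the plasma protein gene nearest to Afp. It had 13582 normalized counts before birth, 24163 (male) and 8047 (female) at P1, 34.7 and 77.6 at 2 weeks, and 35.0 and 14.7 at 12 weeks. It was high in the 3 perinatal pools and low in the other 4. Between P1 and 2 weeks it fell 696-fold in males and 104-fold in females (limma log2 -8.04 ± 0.605, SE; adjusted p 0.00164). Serpina1e was singled out for its likeness to Afp in these same libraries, which includes this fall, so that p-value is no separate evidence for it. Its copies Serpina1a, Serpina1b, Serpina1c and Serpina1d fell 11.0-fold to 23.6-fold in males and 2.104-fold to 8.56-fold in females. These genes are near-identical, so reads may be split between them and each value is uncertain.

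Hepatocyte enzymes and transporters were checked as markers of liver cells inside the glands' RNA. Of 20, 19 were tested. From P1 to 2 weeks 13 fell and 1 rose in limma, against 10.5% and 5.89% of all genes tested. From 2 weeks to 12 weeks 18 fell, against 9.89% of all genes tested. The summed level of the 20 ranged from 14388 to 39023 normalized counts in the 3 perinatal pools, and was 3250 and 5465 at 2 weeks. At 12 weeks it was 6931 in males and 2353 in females, nearly all of it Cyp2e1 (6816 and 2306), and 5 and 8 of the 20 had no read. Cps1, the first enzyme of the urea cycle, changed by -3.54 log2 from P1 to 2 weeks, Cyp3a11 by -3.13 (adjusted p 0.120) and Cyp2e1 by -0.26 (adjusted p 0.844). Tdo2, which breaks down tryptophan, rose by 2.45 ± 0.529 (SE; limma adjusted p 0.0268). In limma 0 of this list passed in the first step without the P1 male, the P1 female or the 2-week male library (14, 13 and 13 at an unadjusted p under 0.05). Without the 2-week female library 7 passed in the first step and 8 in the second, and without either P1 library 9 passed in the second.

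Other tissues' markers moved as well. In the first step, P1 to 2 weeks, 8 of 8 kidney genes and 6 of 6 skeletal muscle genes fell and 7 of 7 adipocyte genes rose in limma. Of all genes tested, 10.5% fell and 5.89% rose in the same fit. Other lists moved only in part: 4 of 6 exocrine pancreas genes and 2 of 8 erythroid genes fell. The 1 intestine gene tested did not pass. In edgeR all of the kidney, skeletal muscle and adipocyte genes passed too. DESeq2 called 3 of the 8 kidney genes (4 at an unadjusted p under 0.05). In limma without a trend 1 of the 6 skeletal muscle genes passed (6 at an unadjusted p under 0.05). Without the P1 male or the P1 female library 0 kidney and 0 skeletal muscle genes passed in limma (8 and 8, and 4 and 6, at an unadjusted p under 0.05), and 2 and 5 adipocyte genes did. Without the 2-week male library 2 kidney genes passed. Kidney genes summed to 3118 (male) and 645 (female) normalized counts at P1 and to 6.23 and 11.5 at 2 weeks. The sums for exocrine pancreas genes at P1 were 6181 and 101.6. The part of these tissues in the decline of the 8 genes was not tested. The islet markers, of interest since islets make Ttr, summed to at most 13.9 in any library.

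Among 14 transcription factors that act on Afp and its neighbours in liver, 13 were tested. In the first step 6 fell and 3 rose in limma, against 10.5% and 5.89% of all genes tested. Without the P1 male or the P1 female library 0 passed (9 and 9 at an unadjusted p under 0.05), and 1 passed without the 2-week male and 2 without the 2-week female library. Hnf4a, a main activator of plasma protein genes in hepatocytes, had 516.7 normalized counts before birth, 1183 (male) and 861.0 (female) at P1, 32.0 and 67.0 at 2 weeks, and 1.40 and 1.13 at 12 weeks. It fell in both steps, by -4.41 ± 0.439 (SE; limma adjusted p 0.00347) and -4.39 ± 0.439 (adjusted p 0.00246).

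Zbtb20, a repressor of Afp in postnatal liver, went the other way. It had 6492 normalized counts before birth, 8299 (male) and 11023 (female) at P1, 20500 and 21156 at 2 weeks, and 27946 and 26371 at 12 weeks. The ages did not overlap, but the change from 2 weeks to 12 weeks, 0.38 log2, did not pass (limma adjusted p 0.222). The rise from P1 to 2 weeks was 1.12 ± 0.192 log2 (SE; limma adjusted p 0.0132). In that same step the other regulators changed as follows. Cebpa rose by 1.79 ± 0.181 (adjusted p 0.00347) and Cebpb by 1.21 ± 0.301 (adjusted p 0.0404). Zhx2 and Zfhx3, which also repress Afp in liver, had log2 changes of 0.05 (adjusted p 0.889) and 0.15 (adjusted p 0.690). These levels are of whole glands and do not say which cells hold the transcripts.

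Receptors and transporters that handle these plasma proteins were present throughout. In the first step 2 of 7 fell in limma, against 10.5% of all genes tested. They were Lrp2 (-5.96 log2) and Cubn (-4.51), endocytic receptors of the kidney tubule. Scarb1, the HDL receptor that takes up cholesterol ester into cortical cells, had 73112 normalized counts before birth, 48325 (male) and 8997 (female) at P1, 21560 and 20469 at 2 weeks, and 16779 and 14961 at 12 weeks. Its change was 0.01 log2 (adjusted p 0.993), with the P1 female pool the lowest of the 7. Abca1, which exports cholesterol to Apoa1, changed by 0.08 (adjusted p 0.907) and Fcgrt, the receptor that recycles albumin, by 0.25 (adjusted p 0.406).

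All 17 genes named here as past the threshold from P1 to 2 weeks missed it without the P1 male library (limma adjusted p 0.0746 to 0.300), and 16 missed it without the P1 female library. A fit without 1 library has 1 residual degree of freedom.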

How the data were processed

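RNA was measured in 7 libraries, each from 1 pool of adrenal glands. The authors deposited 1 table of normalized counts (a signal that is never negative). CASAVA 1.8.2, HISAT2 2.1.0, HTSeq 0.9.1, DESeq2 2.11.40.6 and the build mm10 are named in the submitters' processing notes, without their roles. The annotation and the use of strand are not given in the sources used here. All values (100%, within 0.001 reads) were whole multiples of 1 step per library, so whole reads were recovered.

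Genes with a mean of at least 10 were tested on log2(normalized count + 1), which understates changes of low genes, with limma 3.58.1 in R 4.3.3 (eBayes with a trend, two-sided, Benjamini-Hochberg over 16720 genes, threshold 0.05). The 6 postnatal libraries were fitted with sex and age, which leaves 2 residual degrees of freedom. The sexes stand in for replicates of an age. Scripts were tested on simulated data. edgeR 4.0.16 and DESeq2 1.42.0 were run on the recovered reads, and other filters, pseudocounts, scalings and left-out libraries were tried.

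The members and the gene lists were chosen with earlier results of these data known. The genes named are the 8 members, the 4 most abundant of each list that is described gene by gene, genes called against their list's direction, Afm and Gc, and the 5 most alike to Afp and to Alb. Some items that the rule names are not reported here. Other genes, such as Cubn, Fgg and the Serpina1 copies, were picked with their values in view. Promoter sequences and gene positions came from RefSeq (GRCm38.p6) and GENCODE M21 (GRCm38), the same build as mm10.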

Additional observations from a re-analysis of the deposited data

Results flagged for a closer look

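For 7 of the 8 genes, the male pool was above the female pool at one age and below it at another, each beyond counting error. With 1 pool per sex and age, this difference between ages was not tested, and Y-linked transcripts were found in the P1 female library. Values are male minus female on the log2 scale. Afp differed by 0.88 at P1, -1.62 at 2 weeks and -3.00 at 12 weeks. Alb differed by 0.79 at P1, -1.36 at 2 weeks and 0.65 at 12 weeks. Ahsg differed by 0.10 at P1, -1.44 at 2 weeks and -0.92 at 12 weeks. Apoa1 differed by -0.66 at P1, -1.21 at 2 weeks and 1.46 at 12 weeks. Ttr differed by 0.91 at P1 and -1.83 at 2 weeks. Fgb differed by 0.57 at P1 and -1.29 at 2 weeks. Ambp differed by 0.12 at P1 and -1.54 at 2 weeks. Apoa2 was lower in the male pool at P1 and 2 weeks, and at 12 weeks its counting interval included no difference.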

How the results depend on the processing

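Each group had 1 library, so a difference between 2 pools has no replicate check, and values at 12 weeks rest on 0 to 177 reads per gene. No paired analysis was possible because no group had a replicate, and sex or age served as the block. The change of Afp minus that of Alb kept its sign under the other pseudocounts and with values raised to the floor. Of 240 recomputed changes of single members between ages, 223 stayed within counting error and 17 moved beyond it, 11 of them with equal totals, a scaling that shifts the median of all genes to -0.20 log2 from 2 weeks to 12 weeks.

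With every gene with a mean above 0 tested, 0 genes passed in limma for sex (783 at an unadjusted p under 0.05), 0 between P1 and 2 weeks (6431) and 0 between 2 and 12 weeks (6036), and 0 of both lists (43 and 40 other plasma protein genes and 14 and 18 hepatocyte genes at an unadjusted p under 0.05). Without a trend the counts were 1672, 1661 and, for sex, 0 (638). Over all genes 2737 passed from P1 to 2 weeks (2795 in edgeR, 2988 in DESeq2) and 2557 from 2 weeks to 12 weeks (2396 and 2917). With equal totals the latter were 647 higher and 2515 lower, against 903 and 1654. For sex 1 gene passed in limma, 0 in edgeR (667 at an unadjusted p under 0.05) and 9 in DESeq2. With a pseudocount of 0.1, 7 hepatocyte genes passed from P1 to 2 weeks.

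Leaving out 1 library gave 2 to 4461 genes for P1 to 2 weeks, 421 to 3035 for 2 to 12 weeks and 0 to 51 for sex. The other plasma protein list then had 0 to 46 and 21 to 43 genes past the threshold, and the hepatocyte list 0 to 17 and 8 to 19. The cause was not tested.

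Sex differences that missed the threshold changed sign under some settings: Ttr to -0.28 in edgeR and -0.062 with a pseudocount of 5, Fgb to -0.15 and -0.013, and Ambp to -0.59 and -0.25, and to -0.032 in DESeq2. Over the left-out libraries the differences ranged from -2.31 to -0.37 for Afp and -1.18 to -0.41 for Ahsg, with no change of sign, and from -0.35 to 0.72 for Alb, -0.94 to 0.40 for Apoa1, -0.46 to 0.97 for Ttr, -0.36 to 0.70 for Fgb and -0.71 to 1.02 for Ambp. The change of Scarb1 from P1 to 2 weeks turned to -0.15 in edgeR and in DESeq2. Over the left-out libraries it ranged from -1.14 to 1.16 for Scarb1, -0.36 to 0.53 for Abca1, -0.18 to 0.28 for Zhx2, -0.26 to 0.57 for Zfhx3, -0.018 to 0.52 for Fcgrt and -1.72 to 1.19 for Cyp2e1.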
